A study of Mus musculus with 8 samples.

Results

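The genes described here are 40 targets and partners of the transcription factor ATF4 in mouse cornea, the genes of the amino acid response. They were taken by symbol from a list that fell into 9 transcription factors and feedback genes, 9 amino acid transporters, 10 enzymes of amino acid and one-carbon synthesis, and 12 aminoacyl-tRNA synthetases. All 40 were found among the 24918 rows of the deposited table, and all 40 had a mean log2 value of at least 3, the level that 14715 rows reached and above which rows were tested. RNA of whole corneas was sequenced from male wild-type C57BL/6J mice given dexamethasone eye drops, a synthetic glucocorticoid, and from mice given vehicle eye drops, both for 6 h. Mice of both groups had been adrenalectomized when 8 weeks old, about 4 weeks earlier, so neither group had adrenal glucocorticoids. Each group had 4 libraries, and each library came from a pool of 4 to 6 corneas. The labels do not say how many mice gave a pool, so p-values measure the spread between pools. All values are the authors' normalized log2 values, and per-library values are given in the order of replicates 1 to 4.

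ATF4 is made when stress kinases such as PERK and GCN2 phosphorylate the initiation factor eIF2, which slows general translation and at the same time lets the ATF4 messenger be translated. ATF4 then raises genes that import amino acids, make them and load them onto tRNA, together with genes such as Ppp1r15a and Trib3 that feed back on the pathway. Because ATF4 is controlled in large part at translation, its messenger level and the levels of its targets can differ.

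Members stood high together in 1 library of each group. Dexamethasone replicate 1 was the highest of the 4 dexamethasone libraries in 36 of 40 members, and vehicle replicate 3 was the highest of the 4 vehicle libraries in 38. Both held at once for 34 members (85.0%), against 13.0% of all tested rows. Measured against the mean of the other 3 libraries of its group, the median member deviated by 0.30 on the log2 scale in dexamethasone replicate 1 and by 0.47 in vehicle replicate 3. In the other 6 libraries, whose reference contains the raised library, the median deviation was -0.06 to -0.21. Over all tested rows the median deviation was between -0.005 and 0.003 in every library. For dexamethasone replicate 1 the deviation of 32 members, and for vehicle replicate 3 that of 34, exceeded the 95th percentile of all tested rows (0.13 and 0.17). Results are therefore given with all 8 libraries and without these 2. The 2 libraries were known to be high in these genes when this was chosen, and the smaller spread among the remaining 6 follows in part from that choice.

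**Figure D1:**
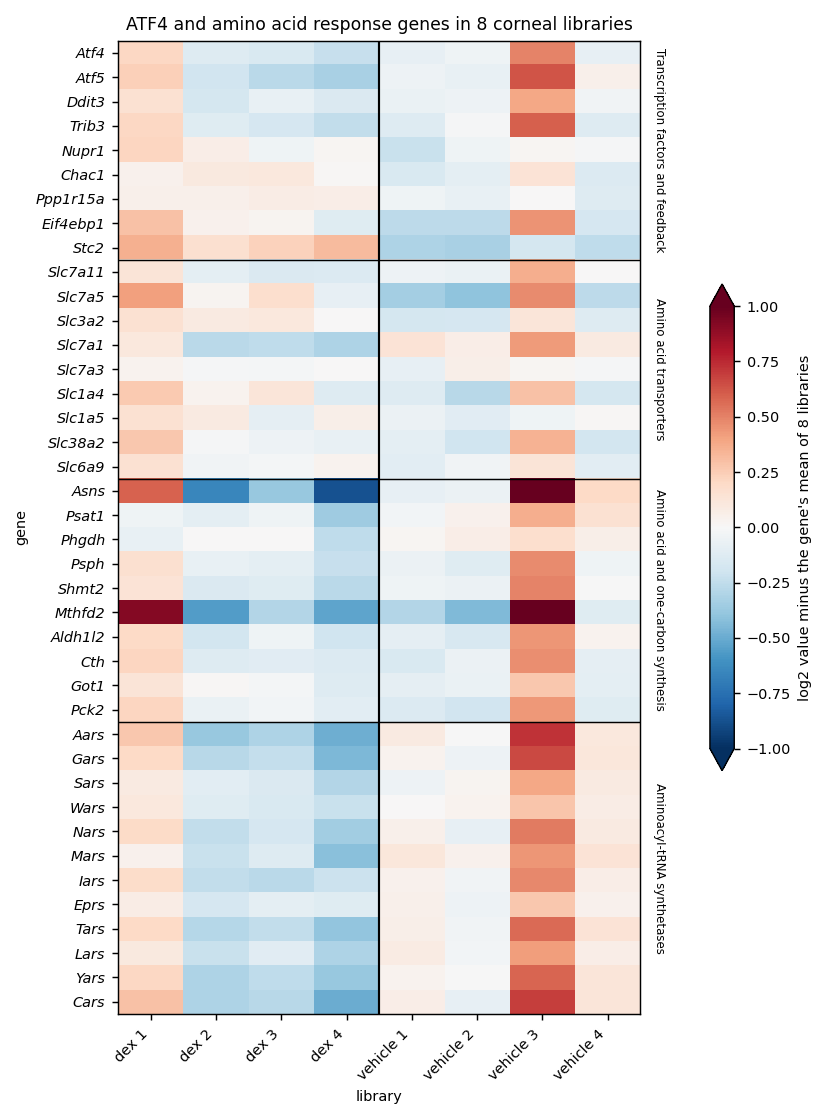
Each row is 1 of the 40 genes and each column 1 library, dexamethasone on the left and vehicle on the right of the vertical line; color is the log2 value minus the gene's mean of 8 libraries. Dexamethasone replicate 1 and vehicle replicate 3 are the highest of their groups in 34 genes, and in the other 6 libraries the synthetases in the lowest block are lower after dexamethasone.

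With all 8 libraries, 4 of 40 members (10%) passed the test (limma, adjusted p below 0.05 over 14715 rows), against 15.1% of all tested rows. Stc2 and Ppp1r15a rose, against 9.04% of rows that rose, and Slc7a1 and Mars fell, against 6.03%. The median standard error of a member's log2 fold change was 0.113, against 0.037 over all tested rows. Without the 2 libraries, 22 of 40 members (55.0%) passed, against 15.0% of all tested rows, and the median standard error of the members was 0.047, against 0.04. Of these 22, 7 rose, against 8.99% of rows: the stress and feedback genes Stc2, Ppp1r15a, Chac1 and Eif4ebp1 and the neutral amino acid exchangers Slc7a5, Slc3a2 and Slc1a4. Another 15 fell, against 5.97% of rows: Atf5, the arginine transporter Slc7a1, asparagine synthetase (Asns) and all 12 aminoacyl-tRNA synthetases. With 1 library left out, 13 members were called without dexamethasone replicate 1, 9 without vehicle replicate 3, 2 without vehicle replicate 4 and 1 without dexamethasone replicate 2 or 4. Of all 14715 tested rows, 1411 to 2131 were called with 1 library left out. Between the fit with all 8 libraries and the fit without both, no log2 fold change of a member moved by more than 0.11 (Slc7a5), whereas with 1 library left out they moved further, for Asns to between -0.961 and -0.349. The median log2 fold change of the members was -0.15 with all 8 libraries and -0.10 without the 2, against -0.00292 and -0.00239 over all tested rows. In whole corneas, fewer cells of a type and less RNA per cell cannot be told apart.

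The 2 libraries left out come 1 from each group, and the labels do not pair them. Dexamethasone replicate 1 lay below vehicle replicate 3 in all 15 members that fell in the other 6 libraries. It lay above vehicle replicate 3 in 3 of the 7 that rose. Over the 40 members it lay below in 33, against 50.6% of all tested rows. Members stood further above their group in vehicle replicate 3 (median 0.47) than in dexamethasone replicate 1 (median 0.30). The order of these 2 libraries therefore cannot be read as a repeat of the treatment difference. These are 2 libraries without replicates, so no test was made.

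Another fit kept all 8 libraries and added a term for the mean of 16 wound-response keratinocyte genes, 9 of which were also highest of their group in both libraries; it was added after the data were seen. In it 27 members passed, 11 higher and 16 lower, against 19.0% of all tested rows, 11.1% higher and 7.84% lower. All 22 members called without the 2 libraries were among them, and Psat1, Nupr1, Pck2, Slc38a2 and Slc6a9 were called in addition. Because 9 of the 16 genes were highest in the same 2 libraries, this fit is not independent of the one without them. The median standard error of the members was 0.042 in this fit.

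**Figure D2:**
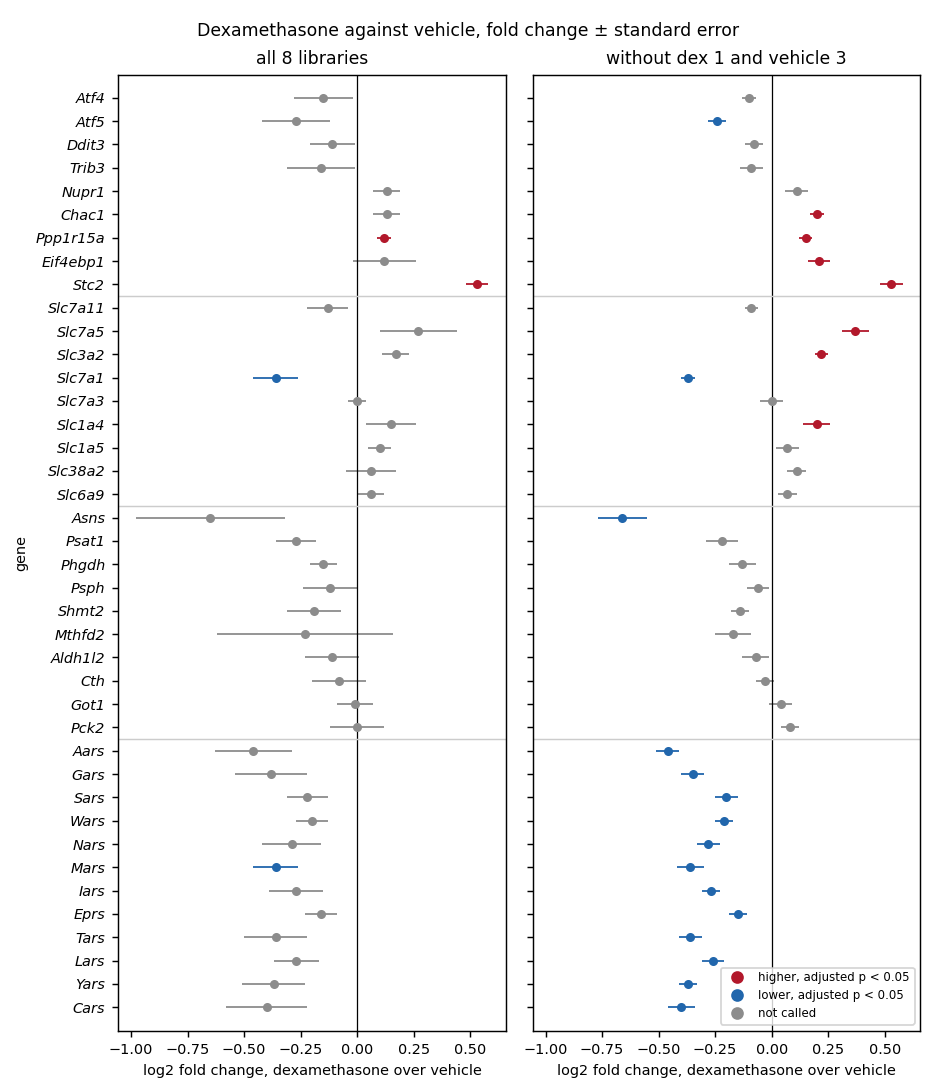
Points are log2 fold changes, dexamethasone over vehicle, of the 40 genes with bars of 1 standard error, for all 8 libraries on the left and without dexamethasone replicate 1 and vehicle replicate 3 on the right; red marks genes called higher, blue genes called lower and grey genes not called. On the left 4 genes are called and on the right 22, with all 12 synthetases lower.

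ATF4 and its C/EBP partners bind a short composite element, the amino acid response element, and its core was searched for as TGATGNAA on both strands of the promoter windows of RefSeq (build GRCm38.p6, 250 bases before to 50 after the start). Windows were found for 30 of the 40 members by Entrez identifier, and 13 of these 30 (43.33%) held a match. Among all 27025 genes with a window 1219 (4.511%) held one. Of the 25 other cytosolic and mitochondrial synthetase genes described later, 19 had a window, and 0 of these 19 held a match. A match is a description of the letters and not a measured binding site. Of the 13 genes with a match, 8 were called without the 2 libraries and 5 were not. Of all 40 members 22 (55.0%) were called, but these 40 include 10 without a window, which could not show a match. Whether a match goes with a call was not tested. The windows below are those of the 8 genes with a match that were called without the 2 libraries, 2 of them higher (Chac1 and Slc1a4) and 6 lower, and of Slc7a11, which held 2 matches. Each is written 5′ to 3′ in the direction of the gene, with the core in capitals, in the orientation TGATGNAA or its reverse complement TTNCATCA.
Asns, chr6:7693189-7693268, minus strand: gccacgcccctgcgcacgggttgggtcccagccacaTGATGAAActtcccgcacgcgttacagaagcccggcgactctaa
Chac1, chr2:119351013-119351092, plus strand: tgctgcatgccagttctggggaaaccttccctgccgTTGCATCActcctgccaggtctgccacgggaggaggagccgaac
Slc1a4, chr11:20332674-20332753, minus strand: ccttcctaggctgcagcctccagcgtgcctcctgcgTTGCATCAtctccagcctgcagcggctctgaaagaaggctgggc
Slc7a11, chr3:50443636-50443715, minus strand: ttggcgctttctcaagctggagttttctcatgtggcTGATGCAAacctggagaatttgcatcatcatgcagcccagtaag
Aars, chr8:111033694-111033773, plus strand: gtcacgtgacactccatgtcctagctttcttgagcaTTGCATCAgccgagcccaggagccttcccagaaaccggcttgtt
Gars, chr6:55037935-55038014, plus strand: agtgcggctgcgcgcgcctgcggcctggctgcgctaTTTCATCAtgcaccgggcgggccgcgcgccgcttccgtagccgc
Iars, chr13:49682101-49682179, plus strand: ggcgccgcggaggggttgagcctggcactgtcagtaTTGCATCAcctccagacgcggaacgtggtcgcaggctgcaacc
Tars, chr15:11399630-11399709, minus strand: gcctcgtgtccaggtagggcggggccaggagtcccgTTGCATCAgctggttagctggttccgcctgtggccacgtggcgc
Yars, chr4:129189870-129189949, plus strand: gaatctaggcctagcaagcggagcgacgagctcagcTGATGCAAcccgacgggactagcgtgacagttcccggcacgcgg

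Counted from the first transcribed base as 1, with negative positions before it, the first capital base was at position -23 in Asns, -193 in Chac1, -4 in Slc1a4, -66 in Slc7a11, -112 in Aars, -30 in Gars, 8 in Iars, -15 in Tars and 4 in Yars. Slc7a11 held its other match at position -47, within the printed window, and Aars held its other one at position 10. Matches in Got1, Nupr1, Pck2 and Trib3 lay at positions -102, -110, -103 and 15. The cyclic AMP response element TGACGTCA, which is its own reverse complement, was in 1 of the 30 member windows (3.333%), that of Ppp1r15a, and in 549 of all 27025 (2.031%). Ppp1r15a is shown because it was 1 of the 4 members that passed the test with all 8 libraries; its element is in capitals and begins at position -12.
Ppp1r15a, chr7:45526237-45526316, minus strand: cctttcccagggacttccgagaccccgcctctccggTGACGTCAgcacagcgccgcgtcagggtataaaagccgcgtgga

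The transcription factors at the head of the response did not pass the test with all 8 libraries. Atf4 itself (Entrez 11911, mm9 chromosome 15, 80085614 to 80087970) was 11.80, 11.46, 11.44 and 11.36 after dexamethasone, against 11.51, 11.55, 12.09 and 11.51 after vehicle. Its group means were 11.52 ± 0.19 after dexamethasone and 11.67 ± 0.29 after vehicle (SD, n = 4 each), a log2 fold change of -0.15 ± 0.13 (SE, limma adjusted p = 0.476). The groups overlapped, because dexamethasone replicate 1 lay above 3 vehicle libraries, and without the 2 libraries the log2 fold change was -0.10 ± 0.03 (SE, limma adjusted p = 0.0774). Atf5, a related factor whose translation is controlled like that of Atf4, was 10.75, 10.32, 10.24 and 10.19 after dexamethasone, against 10.46, 10.44, 11.14 and 10.56 after vehicle. Its log2 fold change was -0.27 ± 0.15 (SE, limma adjusted p = 0.259) with all 8 libraries, and it fell without the 2, with a log2 fold change of -0.24 ± 0.04 (SE, limma adjusted p = 0.00326). It was not called without dexamethasone replicate 1 alone or vehicle replicate 3 alone, at adjusted p-values of 0.0871 and 0.521 (limma). Its gene overlaps Nup62 by 571 bases and Il4i1 by 289 bases on the opposite strand. Ddit3, the stress factor CHOP, was 8.20, 7.87, 7.97 and 7.90 after dexamethasone, against 7.98, 7.99, 8.43 and 8.01 after vehicle. Neither fit called it, at -0.11 ± 0.10 (SE, limma adjusted p = 0.492) with all 8 libraries and -0.08 ± 0.04 (SE, limma adjusted p = 0.278) without the 2. Its annotated gene overlaps that of Mars by 68 bases on the opposite strand.

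Among the feedback and effector genes of the same block, 2 rose with all 8 libraries and 4 without the 2, and none fell. Of all tested rows, 9.04% rose with all 8 libraries and 8.99% without the 2. Stc2, a secreted glycoprotein gene induced by stress (Entrez 20856, mm9 chromosome 11, 31257307 to 31270074), was 7.61, 7.41, 7.48 and 7.57 after dexamethasone, against 6.94, 6.93, 7.08 and 7.0 after vehicle. All 4 dexamethasone libraries lay above all 4 vehicle libraries. Stc2 averaged 7.52 ± 0.09 after dexamethasone and 6.99 ± 0.07 after vehicle (SD, n = 4 each), a rise of 0.53 ± 0.05 (SE, limma adjusted p = 5.16e-05) on the log2 scale, or 1.45-fold. It was called under all 17 alternative settings, with adjusted p-values of up to 0.000571, which no other member was.

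Ppp1r15a, which encodes the GADD34 subunit that directs a phosphatase to eIF2 and so restores translation, was 10.45, 10.45, 10.48 and 10.47 after dexamethasone, against 10.36, 10.33, 10.41 and 10.27 after vehicle. Its groups did not overlap and it rose by 0.12 ± 0.03 (SE, limma adjusted p = 0.0337), a small change that was called in 8 of 17 alternative settings with adjusted p-values of up to 0.104. Leaving out any single library except vehicle replicate 3 ended the call, at adjusted p-values between 0.0515 and 0.104, and its gene overlaps Tulp2 by 717 bases on the opposite strand. Chac1, an enzyme that degrades glutathione, was 11.29, 11.34, 11.35 and 11.26 after dexamethasone, against 11.09, 11.15, 11.38 and 11.11 after vehicle. It had a log2 fold change of 0.13 ± 0.06 (SE, limma adjusted p = 0.167) with all 8 libraries, in which vehicle replicate 3 reached the dexamethasone values. Chac1 rose without the 2 libraries, by 0.20 ± 0.03 (SE, limma adjusted p = 0.00252). Its adjusted p was 0.2 without dexamethasone replicate 1 alone and 0.00219 without vehicle replicate 3 alone (limma). Eif4ebp1, an inhibitor of cap-dependent translation, was 10.08, 9.83, 9.82 and 9.67 after dexamethasone, against 9.53, 9.53, 10.24 and 9.62 after vehicle. It had a log2 fold change of 0.12 ± 0.14 (SE, limma adjusted p = 0.623) in the first fit and rose by 0.21 ± 0.05 (SE, limma adjusted p = 0.013) in the fit without the 2 libraries. Without dexamethasone replicate 1 alone its log2 fold change was 0.04 (limma adjusted p = 0.886). Without vehicle replicate 3 alone it was 0.29 (limma adjusted p = 0.024).

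Trib3, a pseudokinase that restrains ATF4 and CHOP, was 9.35, 9.02, 8.97 and 8.89 after dexamethasone, against 9.01, 9.13, 9.74 and 9.01 after vehicle. It was not called, with log2 fold changes of -0.16 ± 0.15 (SE, limma adjusted p = 0.507) for all 8 libraries and -0.09 ± 0.05 (SE, limma adjusted p = 0.256) without the 2. Nupr1, a stress-induced chromatin protein gene, was 11.10, 10.95, 10.84 and 10.90 after dexamethasone, against 10.66, 10.84, 10.90 and 10.87 after vehicle, and its log2 fold change was 0.13 ± 0.06 (SE, limma adjusted p = 0.181) with all 8 libraries and 0.11 ± 0.05 (SE, limma adjusted p = 0.186) without the 2. Of the 9 genes of this block, 4 rose and 1 fell without the 2 libraries, with a median log2 fold change of 0.11. Of all tested rows, 8.99% rose and 5.97% fell in that fit.

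**Figure D3:**
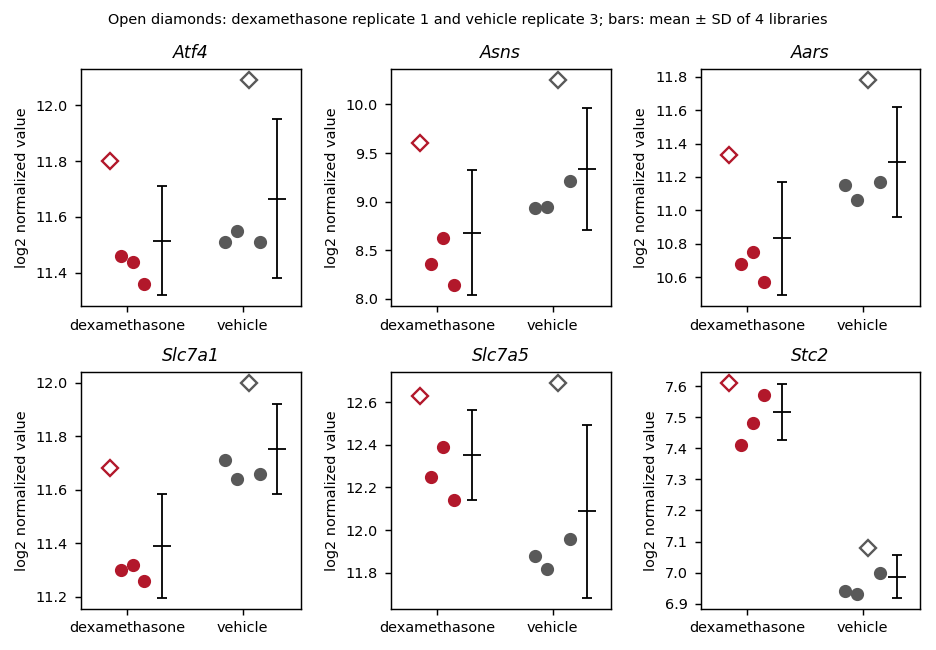
Log2 normalized values of 6 genes in each library, dexamethasone on the left and vehicle on the right of each panel; open diamonds are dexamethasone replicate 1 and vehicle replicate 3, and bars are the mean ± SD of 4 libraries. In Atf4, Asns, Aars, Slc7a1 and Slc7a5 the diamonds are the highest of their group; the remaining 3 dexamethasone libraries lie below the remaining 3 vehicle libraries in Atf4, Asns, Aars and Slc7a1 and above them in Slc7a5, and in Stc2 all 4 lie above all 4.

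Without the 2 libraries, 3 of the 9 transporters rose and 1 fell, against 0 and 1 with all 8. Of all tested rows, 8.99% rose and 5.97% fell without the 2, against 9.04% and 6.03% with all 8. Slc7a5 and Slc3a2 encode the light and heavy chain of the exchanger LAT1, which imports large neutral amino acids such as leucine. Slc7a5 was 12.63, 12.25, 12.39 and 12.14 after dexamethasone, against 11.88, 11.82, 12.69 and 11.96 after vehicle. Its 2 highest values were those of vehicle replicate 3 and dexamethasone replicate 1, and with all 8 libraries its log2 fold change was 0.27 ± 0.17 (SE, limma adjusted p = 0.323). Without them it rose by 0.37 ± 0.06 (SE, limma adjusted p = 0.00106). Slc3a2 was 12.08, 12.02, 12.03 and 11.93 after dexamethasone, against 11.75, 11.76, 12.05 and 11.80 after vehicle. Its log2 fold change was 0.17 ± 0.06 (SE, limma adjusted p = 0.0801) with all 8 libraries, and it rose by 0.22 ± 0.03 (SE, limma adjusted p = 0.00114) without the 2, so both chains of the exchanger were called higher there. Without vehicle replicate 3 alone both were called, with log2 fold changes of 0.47 and 0.25 (limma adjusted p of 0.00468 and 0.000889). Without dexamethasone replicate 1 alone neither was, with log2 fold changes of 0.17 and 0.15 (limma adjusted p of 0.557 and 0.162). Slc1a4, an exchanger of alanine, serine and cysteine, was 9.98, 9.75, 9.84 and 9.59 after dexamethasone, against 9.59, 9.44, 10.01 and 9.54 after vehicle. It had a log2 fold change of 0.15 ± 0.11 (SE, limma adjusted p = 0.418) with all 8 libraries and rose by 0.20 ± 0.06 (SE, limma adjusted p = 0.0423) without the 2. Its adjusted p was 0.683 without dexamethasone replicate 1 alone and 0.0327 without vehicle replicate 3 alone (limma).

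Slc7a1, the cationic transporter CAT1 for arginine and lysine (Entrez 11987, mm9 chromosome 5, 149138986 to 149211480), went the other way and was 11.68, 11.30, 11.32 and 11.26 after dexamethasone, against 11.71, 11.64, 12.00 and 11.66 after vehicle. It fell with all 8 libraries, with a log2 fold change of -0.36 ± 0.10 (SE, limma adjusted p = 0.0292), although dexamethasone replicate 1 overlapped the vehicle libraries. The groups were apart without the 2 libraries, where the log2 fold change was -0.37 ± 0.03 (SE, limma adjusted p = 2e-05). The call held in 12 of 17 settings, and its adjusted p was 0.0775, 0.0668 and 0.0868 without dexamethasone replicate 2, 3 or 4 and 0.0537 without vehicle replicate 1. Slc7a3, another cationic transporter, was 7.50, 7.46, 7.45 and 7.47 after dexamethasone, against 7.39, 7.53, 7.49 and 7.46 after vehicle, and was not called, with a log2 fold change of 0.00 ± 0.04 (SE, limma adjusted p = 0.991).

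Slc7a11, the xCT subunit that exchanges cystine for glutamate, held 2 matches to the core printed above. It was 4.82, 4.59, 4.54 and 4.55 after dexamethasone, against 4.64, 4.62, 5.05 and 4.69 after vehicle, with a log2 fold change of -0.13 ± 0.09 (SE, limma adjusted p = 0.378), and neither fit called it. Without the 2 libraries its log2 fold change was -0.09 ± 0.03 (SE, limma adjusted p = 0.0638). Slc38a2, the SNAT2 transporter of small neutral amino acids, was 13.94, 13.66, 13.62 and 13.60 after dexamethasone, against 13.57, 13.47, 14.02 and 13.49 after vehicle. Its log2 fold change was 0.06 ± 0.11 (SE, limma adjusted p = 0.754) with all 8 libraries and 0.11 ± 0.04 (SE, limma adjusted p = 0.0512) without the 2. Slc1a5, a glutamine exchanger, and Slc6a9, a glycine transporter, had log2 fold changes of 0.10 and 0.06 with adjusted p-values of 0.211 and 0.541 (limma, all 8 libraries).

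Asns, asparagine synthetase, is a standard target of ATF4 (Entrez 27053, mm9 chromosome 6, 7625169 to 7643254). It was 9.60, 8.36, 8.63 and 8.14 after dexamethasone, against 8.93, 8.95, 10.25 and 9.21 after vehicle. The values spread widely within each group, 8.68 ± 0.64 after dexamethasone and 9.34 ± 0.62 after vehicle (SD, n = 4 each). With all 8 libraries the log2 fold change was -0.65 ± 0.33 (SE, limma adjusted p = 0.21). Without the 2 libraries the dexamethasone values lay between 8.14 and 8.63, all under the vehicle values of 8.93 to 9.21, and Asns fell, with a log2 fold change of -0.66 ± 0.11 (SE, limma adjusted p = 0.00168). Its size depended on the libraries: it was -0.96 without dexamethasone replicate 1, -0.35 without vehicle replicate 3 and -0.38 with the wound-response term.

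Psat1 and Phgdh, of serine synthesis, had lower values in every dexamethasone library than in any vehicle library, by amounts that did not pass the test. Psat1, the aminotransferase of serine synthesis, was 11.13, 11.08, 11.13 and 10.82 after dexamethasone, against 11.15, 11.22, 11.54 and 11.33 after vehicle. Its log2 fold change was -0.27 ± 0.09 (SE, limma adjusted p = 0.059) with all 8 libraries and -0.22 ± 0.07 (SE, limma adjusted p = 0.0601) without the 2. Phgdh, the dehydrogenase of the first step, was 9.63, 9.71, 9.71 and 9.45 after dexamethasone, against 9.72, 9.77, 9.87 and 9.76 after vehicle, with a log2 fold change of -0.15 ± 0.06 (SE, limma adjusted p = 0.0886), or -0.13 ± 0.06 (SE, limma adjusted p = 0.194) without the 2. In both genes the groups did not overlap, which held for 4 of 40 members and 20.7% of all tested rows. Without the 2 libraries the groups did not overlap in 30 members, 9 higher and 21 lower, against 34.1% of rows.

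Mthfd2, a mitochondrial folate enzyme, separated the 2 high libraries from the rest more widely than any other member. It was 8.95, 7.48, 7.74 and 7.51 after dexamethasone, against 7.74, 7.59, 9.36 and 7.91 after vehicle. On the log2 scale it deviated from the other libraries of the group by 1.38 in dexamethasone replicate 1, against 1.62 in vehicle replicate 3. No fit called it, at -0.23 ± 0.39 (SE, limma adjusted p = 0.748) with all 8 libraries and -0.17 ± 0.08 (SE, limma adjusted p = 0.211) without the 2. Shmt2, which passes one-carbon units from serine to folate in mitochondria, was 10.11, 9.83, 9.85 and 9.70 after dexamethasone, against 9.93, 9.91, 10.47 and 9.97 after vehicle, with a log2 fold change of -0.19 ± 0.12 (SE, limma adjusted p = 0.311). Psph, Aldh1l2, Cth, Got1 and Pck2 had log2 fold changes between -0.12 and 0.00, none called (limma, all 8 libraries). Asns was thus the 1 enzyme of 10 that was called without the 2 libraries, where the median log2 fold change of the block was -0.10. Of all tested rows, 15.0% were called in that fit.

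The 12 aminoacyl-tRNA synthetases, which attach amino acids to their tRNAs, all had lower means after dexamethasone. All 12 had a negative log2 fold change with all 8 libraries, from -0.46 to -0.16, and Mars alone passed the test. In the fit without the 2 libraries all 12 fell, from -0.46 to -0.15 with a median of -0.31, and their adjusted p-values were at most 0.0218. All 12 were also lower in the fit with the wound-response term, with adjusted p-values of up to 0.0451 and a median log2 fold change of -0.22. The fit with the term is not independent of the one without the 2 libraries. Of all tested rows, 6.03% fell with all 8 libraries, 5.97% without the 2 and 7.84% with the term. With 1 library left out, 1411 to 2131 of the 14715 tested rows were called in either direction. Leaving out dexamethasone replicate 1 alone gave 10 lower calls and a median of -0.42, and leaving out vehicle replicate 3 alone gave 1 and a median of -0.20. The size of the difference therefore depended on which of the 2 libraries was kept, and the direction of all 12 was the same under all 17 alternative settings.

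Mars, which charges tRNA with methionine (Entrez 216443, mm9 chromosome 10, 126733277 to 126748842), was 10.61, 10.35, 10.44 and 10.15 after dexamethasone, against 10.68, 10.61, 11.01 and 10.71 after vehicle. It fell with all 8 libraries, with a log2 fold change of -0.36 ± 0.10 (SE, limma adjusted p = 0.0287), and without the 2 its log2 fold change was -0.36 ± 0.06 (SE, limma adjusted p = 0.00271). Dexamethasone replicate 1 equalled vehicle replicate 2, so the 8 libraries did not separate. The call held in 13 of 17 settings, and the adjusted p was 0.0681 without dexamethasone replicate 2, 0.0737 without dexamethasone replicate 4 and 0.0604 without vehicle replicate 4. Aars, for alanine, was 11.33, 10.68, 10.75 and 10.57 after dexamethasone, against 11.15, 11.06, 11.78 and 11.17 after vehicle. With all 8 libraries Aars had a log2 fold change of -0.46 ± 0.17 (SE, limma adjusted p = 0.101), and it fell, with a log2 fold change of -0.46 ± 0.05 (SE, limma adjusted p = 5.81e-05) without the 2. Dexamethasone replicate 1 stood above 3 of the vehicle libraries, and the remaining dexamethasone libraries stood below all of them.

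The same arrangement returned in most synthetases. The fold changes given below for the remaining synthetases are from the fit without the 2 libraries. Cars, for cysteine, was 10.68, 10.08, 10.11 and 9.89 after dexamethasone, against 10.46, 10.31, 11.08 and 10.51 after vehicle, and it fell, with a log2 fold change of -0.40 ± 0.06 (SE, limma adjusted p = 0.00128) without the 2 libraries. Gars, for glycine, was 11.57, 11.09, 11.13 and 10.92 after dexamethasone, against 11.40, 11.32, 12.03 and 11.48 after vehicle, and it fell, with a log2 fold change of -0.35 ± 0.05 (SE, limma adjusted p = 0.00136). Yars, for tyrosine, was 10.03, 9.51, 9.57 and 9.44 after dexamethasone, against 9.86, 9.82, 10.40 and 9.94 after vehicle, and it fell, with a log2 fold change of -0.37 ± 0.04 (SE, limma adjusted p = 0.000215). With all 8 libraries the adjusted p-values of these 3 genes were 0.153, 0.134 and 0.103 (limma), and none was called. In each of these 3 genes dexamethasone replicate 1 lay above vehicle replicates 1, 2 and 4. Yars shares 30 bases with a gene on the opposite strand, C77080.

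Tars, for threonine, was 11.02, 10.54, 10.58 and 10.43 after dexamethasone, against 10.88, 10.79, 11.39 and 10.96 after vehicle, and it fell, with a log2 fold change of -0.36 ± 0.05 (SE, limma adjusted p = 0.00058). Nars, for asparagine, was 12.03, 11.59, 11.67 and 11.49 after dexamethasone, against 11.89, 11.76, 12.36 and 11.93 after vehicle, and it fell, with a log2 fold change of -0.28 ± 0.05 (SE, limma adjusted p = 0.00386). Iars, for isoleucine, was 10.61, 10.18, 10.16 and 10.21 after dexamethasone, against 10.47, 10.39, 10.91 and 10.49 after vehicle, and it fell, with a log2 fold change of -0.27 ± 0.04 (SE, limma adjusted p = 0.00049). These fits are again those without the 2 libraries. With all 8 libraries the adjusted p-values were 0.102, 0.155 and 0.142 (limma), and none was called. Dexamethasone replicate 1 was again above vehicle replicates 1, 2 and 4 in all 3.

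Lars, for leucine, was 11.15, 10.83, 10.94 and 10.74 after dexamethasone, against 11.13, 11.02, 11.47 and 11.12 after vehicle, and it fell, with a log2 fold change of -0.26 ± 0.05 (SE, limma adjusted p = 0.00521). Sars, for serine, was 10.86, 10.67, 10.63 and 10.48 after dexamethasone, against 10.72, 10.80, 11.16 and 10.86 after vehicle, and it fell, with a log2 fold change of -0.20 ± 0.05 (SE, limma adjusted p = 0.0218). Wars, for tryptophan, was 10.24, 10.01, 9.98 and 9.91 after dexamethasone, against 10.14, 10.17, 10.41 and 10.21 after vehicle, and it fell, with a log2 fold change of -0.21 ± 0.04 (SE, limma adjusted p = 0.00308). Eprs, which encodes the bifunctional enzyme for glutamate and proline, was 11.74, 11.50, 11.57 and 11.55 after dexamethasone, against 11.72, 11.62, 11.94 and 11.71 after vehicle, and it had the smallest fall of the 12, at -0.15 ± 0.04 (SE, limma adjusted p = 0.0189). These 4 fits too are without the 2 libraries. With all 8 libraries the adjusted p-values were 0.0875, 0.133, 0.0938 and 0.132 (limma), and none was called. In these 4 genes dexamethasone replicate 1 deviated from its group by 0.31, 0.27, 0.28 and 0.20 on the log2 scale, and in Mars by 0.30. In the other 7 synthetases it deviated by 0.42 to 0.66.

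For comparison, of 8 other cytosolic synthetases, 3 fell and none rose with all 8 libraries, against 15.1% of all tested rows, and the median log2 fold change was -0.07. Dars, for aspartate, was 10.91, 10.91, 10.94 and 10.88 after dexamethasone, against 10.99, 11.01, 11.00 and 10.99 after vehicle, with a log2 fold change of -0.09 ± 0.03 (SE, limma adjusted p = 0.035). Farsb, a subunit of the enzyme for phenylalanine, and Hars, for histidine, fell by 0.17 and 0.12 on the log2 scale with adjusted p-values of 0.0415 and 0.0355 (limma). In the fit without the 2 libraries 1 of the 8 fell, against 5.97% of all tested rows. It was Rars, for arginine, named after its values were seen, with a log2 fold change of -0.17 ± 0.04 (SE, limma adjusted p = 0.0188). Dars had an adjusted p of 0.0778 in that fit (limma). With all other libraries kept, leaving out dexamethasone replicate 2 or 4, or vehicle replicate 2, 3 or 4, brought the count to 0. Of 17 mitochondrial synthetases 1 fell (5.882%), near the 6.03% of all tested rows that fell. It was Rars2, at a log2 fold change of -0.17 ± 0.03 (SE, limma adjusted p = 0.00453). The median deviation of these lists in the 2 high libraries was 0.045 and 0.036 for the cytosolic and -0.005 and -0.017 for the mitochondrial genes, in dexamethasone replicate 1 and vehicle replicate 3, against 0.43 and 0.48 for the 12 synthetases among the members. The difference between the lists was not tested.

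Upstream of ATF4, a list of 16 genes held the eIF2 kinases, eIF2, its exchange factor eIF2B and related genes. Of these, 1 rose and 2 fell (18.75%), a share near the 15.1% of all tested rows called in either direction. Their median log2 fold change was -0.04. Eif2s1, the subunit of eIF2 that the kinases phosphorylate, was 9.93, 9.87, 9.79 and 9.81 after dexamethasone, against 10.02, 10.03, 10.16 and 10.04 after vehicle. It fell, with a log2 fold change of -0.21 ± 0.04 (SE, limma adjusted p = 0.00585), and the groups did not overlap. Eif2b3, a subunit of eIF2B, fell, with a log2 fold change of -0.18 ± 0.04 (SE, limma adjusted p = 0.0145), and Eif2a, a separate initiation factor, rose by 0.13 ± 0.03 (SE, limma adjusted p = 0.0308), a call lost without any one of dexamethasone replicates 3 and 4 and vehicle replicates 1, 3 and 4. Of 24 genes of the unfolded protein response, the parallel program of the endoplasmic reticulum, 4 fell and none rose (16.67%), a share near the 15.1% of all tested rows. Their log2 fold changes were -0.13 ± 0.03 (SE, limma adjusted p = 0.0159) for Pdia4, -0.15 ± 0.04 (SE, limma adjusted p = 0.0234) for Pdia6, -0.14 ± 0.04 (SE, limma adjusted p = 0.0329) for Manf and -0.14 ± 0.04 (SE, limma adjusted p = 0.0348) for Hspa5, the chaperone BiP. No gene of the list fell without vehicle replicate 4. The median deviations of both lists in the 2 high libraries were at most 0.029.

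Other partners and targets of ATF4 included 2 rises larger than that of Stc2. Ddit4, an inhibitor of mTORC1 that is also a known glucocorticoid target, was 10.99, 10.96, 11.34 and 10.96 after dexamethasone, against 9.69, 9.64, 10.10 and 9.64 after vehicle. It rose by 1.3 ± 0.11 (SE, limma adjusted p = 2.01e-05), or 2.46-fold, with all dexamethasone libraries above all vehicle libraries. Cebpd, a C/EBP factor and likewise a known glucocorticoid target, was 10.15, 10.13, 10.13 and 9.98 after dexamethasone, against 9.25, 9.23, 9.77 and 9.09 after vehicle, and rose by 0.76 ± 0.12 (SE, limma adjusted p = 0.00128). Fam129a rose by 0.27 ± 0.05 (SE, limma adjusted p = 0.00545), and Slc38a1, a glutamine transporter, fell, with a log2 fold change of -0.19 ± 0.04 (SE, limma adjusted p = 0.00617). In all, 7 of 21 tested genes of this list rose and 1 fell (38.1%, against 15.1% of all tested rows), and 12 rose and 2 fell without the 2 libraries (66.67%, against 15.0%). Cebpb, the C/EBP partner that binds the amino acid response element with ATF4 and was named after its values were seen, was 9.53, 9.21, 9.26 and 9.23 after dexamethasone, against 8.81, 8.90, 9.48 and 8.94 after vehicle. Its log2 fold change was 0.28 ± 0.13 (SE, limma adjusted p = 0.168) with all 8 libraries, and it rose by 0.35 ± 0.04 (SE, limma adjusted p = 0.000194) without the 2.

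Known glucocorticoid targets separated the groups. Fkbp5, a co-chaperone of steroid receptors, was 14.47, 14.47, 14.58 and 14.49 after dexamethasone, against 13.73, 13.51, 13.71 and 13.53 after vehicle, a log2 fold change of 0.88 ± 0.05 (SE, limma adjusted p = 3.43e-06). All 14 tested glucocorticoid receptor targets rose, against 9.04% of all tested rows, among them Tsc22d3 (0.59, adjusted p = 7.41e-06, limma). The list was written with earlier results of these data known, so this count is a description. These targets deviated by a median of -0.04 in dexamethasone replicate 1, against 0.05 in vehicle replicate 3. The 16 wound-response keratinocyte genes deviated by a median of 0.11 in dexamethasone replicate 1, against 0.28 in vehicle replicate 3, and 9 of the 16 were highest of their group in both. The 13 immediate-early genes deviated by 0.21 and 0.19 in these libraries, and 8 of the 13 were highest in both. The keratin gene Krt16, named after its values were seen and not typical of its list, was 9.33, 7.65, 7.64 and 7.33 after dexamethasone, against 7.43, 8.04, 11.20 and 7.69 after vehicle.

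Markers of corneal epithelium (9 of 9 tested), stroma (8 of 8) and endothelium (7 of 7) were present in every library. Summed on the linear normalized scale, epithelial markers gave 1658566 to 1834691 after dexamethasone and 1800094 to 1858199 after vehicle. Stromal markers gave 429000 to 459343 after dexamethasone and 426280 to 445151 after vehicle, and endothelial markers 80263 to 84503 after dexamethasone and 74742 to 79901 after vehicle. Markers of conjunctiva and limbus (8 of 10 tested, Muc5ac and Tff1 below the mean of 3) summed to 198182 to 213943 after dexamethasone and 187253 to 201157 after vehicle, with 200981 in dexamethasone replicate 1 and 200351 in vehicle replicate 3. Immune markers (7 of 9 tested) summed to 9832 to 10158 after dexamethasone and 10010 to 10354 after vehicle. Vessel markers (7 of 7) summed to 1805 to 1949 after dexamethasone and 1671 to 1784 after vehicle, and lens, iris and muscle markers (9 of 12) to 1742 to 2155 after dexamethasone and 1826 to 1960 after vehicle. No marker with a row was listed at 0, and the part of these values in the results for the 40 genes was not tested.

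**Figure D4:**
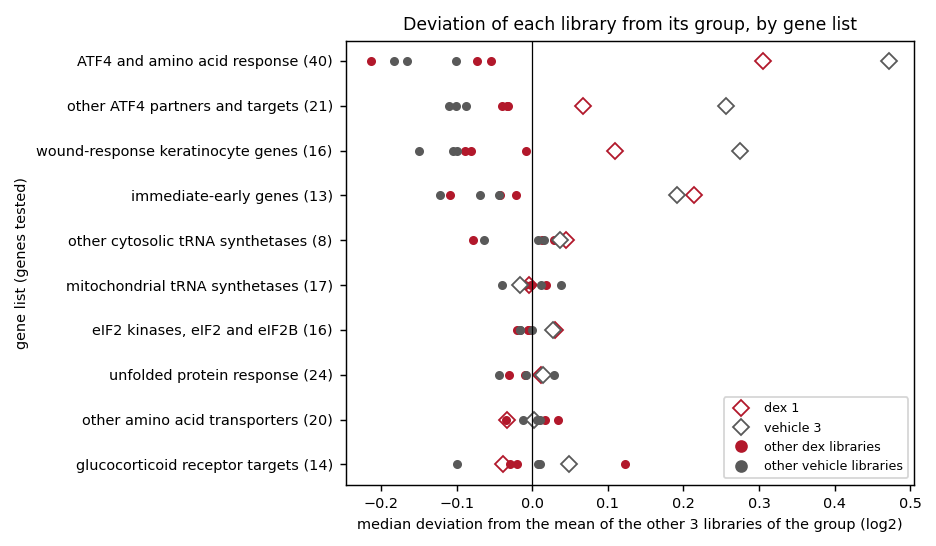
For each gene list, with its number of tested genes, points give the median deviation of each library from the mean of the other 3 libraries of its group, on the log2 scale; red is dexamethasone, grey is vehicle, and open diamonds are dexamethasone replicate 1 and vehicle replicate 3. The 40 ATF4 and amino acid response genes deviate by 0.30 and 0.47 in these libraries, and the other synthetases, the eIF2 genes and the unfolded protein response by less than 0.05. Other ATF4 partners and targets deviate by 0.07 and 0.26, wound-response genes by 0.11 and 0.28, and immediate-early genes by 0.21 and 0.19.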

How the data were processed

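The authors deposited 1 table of normalized log2 values, with a column for each of 8 libraries (4 per group). Bowtie2, HTSeq, DESeq2 and build mm9 are named in the submitters' processing notes. Not given in the sources used here are tool versions, annotation, strand setting and transformation, so overlapping genes cannot be told apart by strand. The labels state more than 40000000 reads of 75 bp, paired, per sample. Whole reads could not be recovered from the values, so depth per value is unknown and intervals for counting error are left out. For the 874 rows of mean 3 to 4 the within-group SD had a median of 0.0303, against 0.361 for a Poisson count of 16 on the log2 scale. Such a spread would arise from shrunken values, in which case fold changes would be understated; neither was tested. A total of 5078 rows are listed at 0 in all libraries.

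The test, two-sided and run on 14715 rows (mean 3 or more), was limma (3.58.1, under R 4.3.3) on group, with empirical Bayes moderation and a trend, with Benjamini-Hochberg adjustment over all of them and a threshold of 0.05. The fit was checked on simulated data with independent spread in each gene and library. That check does not cover libraries high in many genes at once, or the choice of libraries to leave out. Tables were made with Python 3.11.15, NumPy 2.4.6 and pandas 2.3.3. Members, lists and the 2 libraries left out were chosen with earlier results of these data known. Every member could be named; per-library values were given for 13 key genes and each member called with or without the 2 libraries; of other lists, up to 4 called genes by adjusted p were named, of which 1 is not reported here. Alternatives were a replicate block, no filter, a stricter minimum of 5, quantile normalization, a pseudocount of 8, no trend, library quality weights and leaving out libraries; the term for wound-response genes was added after the data were seen. Coordinates are those of mm9 (NCBIM37) in GENCODE vM1, in which 40 of 40 members matched a single gene. Promoter windows are from RefSeq, build GRCm38.p6.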

Additional observations from a re-analysis of the deposited data

Results flagged for a closer look

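In groups of 4, a library was taken as standing apart when its gap to the nearest other library divided by the group's whole range exceeded Dixon's critical ratio. It was found in 21 of 126 sets of gene and group examined, 17 of them among the 80 sets of the members. Chance gives it in about 1 in 20 independent groups. These sets share libraries, and dexamethasone replicate 1 and vehicle replicate 3 were already known to be high in these genes, so the count is a description.

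Vehicle replicate 3 was the highest library in 16 of the 21. Among transcription factors and feedback genes the gap over the range was 0.922 for Atf4, 0.837 for Atf5, 0.928 for Ddit3, 0.833 for Trib3 and 0.875 for Eif4ebp1. Among transporters it was 0.835 for Slc7a11, 0.838 for Slc7a5 and 0.858 for Slc3a2. Among the synthesis enzymes it was 0.867 for Psph, 0.892 for Shmt2, 0.843 for Cth, 0.929 for Got1 and 0.898 for Pck2, and among the synthetases 0.844 for Aars. Outside the members it was 0.872 for Ddit4 and 0.832 for Eif2s1.

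Dexamethasone replicate 1 was the highest of its group for Slc7a1 (0.855), Cth (0.941) and Iars (0.902). Dexamethasone replicate 4 was the lowest for Cebpd (0.903), and dexamethasone replicate 3 was the highest for Ddit4 (0.929).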

How the results depend on the processing

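With all 8 libraries 4 members were called, and the count was 1 with no filter, 7 with library quality weights, 22 without dexamethasone replicate 1 and vehicle replicate 3, 27 with the wound-response term (added after the data were seen) and 1 to 13 when 1 library was left out. It was 13 without dexamethasone replicate 1, 9 without vehicle replicate 3, 2 without vehicle replicate 4 and 1 without dexamethasone replicate 2 or 4. The count over all rows was 1411 to 2131 when 1 library was left out, the lowest without vehicle replicate 4, and 2202 without both libraries. Same-numbered libraries deviated with correlations of -0.314, 0.1852, -0.143 and 0.1352. Such mixed signs cannot show whether the numbers pair the samples, and the labels do not say that they do. A replicate block gave 1675 called rows (1053 higher, 622 lower) and 3 members.

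Other cytosolic synthetases had 0 calls with a replicate block, 1 without both libraries and 0 to 3 with 1 library left out. Mitochondrial synthetases had 2 without a trend and 1 with any library left out. The eIF2 list had 5 without both libraries and 2 to 4 with 1 left out. Other ATF4 partners had 14 without both libraries, 14 with the wound-response term and 5 to 12 with 1 left out. The unfolded protein response had 2 with a replicate block, 7 with quantile normalization and 0 to 6 with 1 left out. Other amino acid transporters had 6 to 8 and the serine, folate and glutamine list 4 to 5 with 1 left out.

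None of the 22 members called with all 8 libraries or without both reversed; Pck2 and Slc38a2, called with the wound-response term, did. Of log2 fold changes near 0, Slc7a3 was -0.00197 with library quality weights and -0.00217 without both libraries, and Got1 was 0.00591 with quantile normalization, 0.0442 with library quality weights, 0.0383 without both libraries and 0.0617 with the wound-response term, where Mthfd2 was 0.113 and Cth 0.0255. With 1 library left out the range crossed 0 for Trib3 (-0.261 to 0.0102), Slc7a3 (-0.0246 to 0.0231), Slc38a2 (-0.0141 to 0.192), Psph (-0.198 to 0.0126), Mthfd2 (-0.571 to 0.178), Aldh1l2 (-0.195 to 0.0163), Cth (-0.169 to 0.0568), Got1 (-0.0518 to 0.0839) and Pck2 (-0.0669 to 0.15). The cause was not tested. Slc7a11 was not tested at a minimum mean of 5. Depth per value is unknown, which limits small changes of low genes most.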

Other observations

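Amino acid transporters outside the ATF4 list differed between the groups both with all 8 libraries and without the 2 high ones: 7 of 20 tested genes rose and 1 fell in either fit (40.0%, against 15.1% and 15.0% of all tested rows). Slc7a8, the LAT2 exchanger that like Slc7a5 pairs with Slc3a2, was 11.75, 11.73, 11.76 and 11.71 after dexamethasone, against 11.24, 11.30, 11.33 and 11.30 after vehicle. All dexamethasone libraries lay above all vehicle libraries, and the log2 fold change was 0.44 ± 0.03 (SE, limma adjusted p = 4.44e-06). Slc6a6, the taurine transporter, was 15.75, 15.86, 15.87 and 15.82 after dexamethasone, against 15.41, 15.40, 15.27 and 15.32 after vehicle, and rose by 0.48 ± 0.04 (SE, limma adjusted p = 3.09e-05). Slc43a1, a transporter of large neutral amino acids, rose by 0.29 ± 0.04 (SE, limma adjusted p = 0.000446), and Slc1a3, a glutamate transporter, fell, with a log2 fold change of -0.29 ± 0.04 (SE, limma adjusted p = 0.000801).

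Of 20 other genes of serine, folate and glutamine metabolism, 3 rose and 3 fell (30.0%, against 15.1% of all tested rows). Glul, which makes glutamine, was 15.58, 15.74, 15.75 and 15.69 after dexamethasone, against 15.27, 15.34, 15.26 and 15.28 after vehicle, and rose by 0.40 ± 0.04 (SE, limma adjusted p = 8.34e-05). Gldc, a subunit of the glycine cleavage system, rose by 0.32 ± 0.04 (SE, limma adjusted p = 0.000503). Mat2a, which makes S-adenosylmethionine, fell, with a log2 fold change of -0.17 ± 0.04 (SE, limma adjusted p = 0.00875). Of 13 hypoxia and glycolysis genes, 1 rose and 2 fell (23.08%, against 15.1% of all tested rows).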
